A study of Mus musculus with 7 samples.

Results

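The genes described here are the 38 protein-coding members of the mouse Hox clusters chosen by symbol, out of 21440 protein-coding genes whose transcription start could be placed on the genome. They lie in 4 clusters, with 10 members in HoxA, 10 in HoxB, 9 in HoxC and 9 in HoxD. The choice used gene names and no measured value, but it was made with earlier results of these data known. Chromatin accessibility was measured by ATAC-seq, in which a transposase inserts sequencing adapters into DNA that is not covered by nucleosomes, in muscle stem cells (MuSCs) sorted from hindlimb muscle of 4 Nedd4L-cKO and 3 Nedd4L-WT mice. Each library was made from 5000 freshly isolated cells of 1 mouse, and the mice were males of 5 to 6 weeks.

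The Nedd4L-cKO mice carried Nedd4L fl/fl Pax7 cre/+ on a C57BL/6 background. Nedd4L is an E3 ubiquitin ligase, and in this model exon 15, which encodes part of its catalytic domain, is removed wherever Pax7 drives the Cre recombinase, while the gene is still transcribed. Pax7 is active in muscle progenitors already before birth, so cells that descend from them can carry the deletion too. The Nedd4L-WT mice carry only that label, and whether they held the Cre or the floxed alleles is not given in the sources used here. Peak lists cannot show the loss of an exon, so the deletion itself was not checked. The replicate numbers name mice, and the labels give no pairing of them across genotypes.

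Hox genes encode homeodomain transcription factors that give cells their position along the head to tail axis and, in the limb, from shoulder or hip to digit. Within a cluster, the order of the genes follows the order in which they are used along the body, from the anterior genes with low paralog numbers to the posterior genes with high ones, and genes with the same number in different clusters are paralogs. Cells of adult tissues, MuSCs among them, keep a record of where they formed in the Hox genes they leave active, and Polycomb and Trithorax proteins hold these genes in their repressed or active state.

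Promoter sequences are given here for 4 members that stand at opposite ends of the measurements, from RefSeq for build GRCm38.p6 (the assembly also called mm10), 5′ to 3′ on the strand of the gene, from 250 bases before to 50 bases after the start, with CG dinucleotides in capitals. Hoxa9, a posterior gene known for its role in blood stem cells and in aged MuSCs, had the highest tag pileup of all members, but a low enrichment over its surroundings (chr6:52227321-52227620, minus strand). Hoxd9, its paralog in HoxD, had the highest pileup rank of that cluster (chr2:74697513-74697812, plus strand). Hoxa2, which patterns the second branchial arch (chr6:52164782-52165081, minus strand), and Hoxd4, a gene of the neck vertebrae (chr2:74721728-74722027, plus strand), had no promoter peak in any library.
Hoxa9: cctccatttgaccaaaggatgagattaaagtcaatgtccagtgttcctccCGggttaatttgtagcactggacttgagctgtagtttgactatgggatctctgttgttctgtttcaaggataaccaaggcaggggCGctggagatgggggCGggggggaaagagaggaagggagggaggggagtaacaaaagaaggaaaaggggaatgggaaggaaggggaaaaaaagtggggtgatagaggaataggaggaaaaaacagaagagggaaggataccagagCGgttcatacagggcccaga
Hoxd9: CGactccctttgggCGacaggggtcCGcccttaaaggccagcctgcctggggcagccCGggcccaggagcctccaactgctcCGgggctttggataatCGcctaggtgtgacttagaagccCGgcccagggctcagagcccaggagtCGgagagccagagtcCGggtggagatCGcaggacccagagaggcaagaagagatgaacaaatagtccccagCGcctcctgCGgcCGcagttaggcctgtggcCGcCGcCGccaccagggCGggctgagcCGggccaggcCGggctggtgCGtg
Hoxa2: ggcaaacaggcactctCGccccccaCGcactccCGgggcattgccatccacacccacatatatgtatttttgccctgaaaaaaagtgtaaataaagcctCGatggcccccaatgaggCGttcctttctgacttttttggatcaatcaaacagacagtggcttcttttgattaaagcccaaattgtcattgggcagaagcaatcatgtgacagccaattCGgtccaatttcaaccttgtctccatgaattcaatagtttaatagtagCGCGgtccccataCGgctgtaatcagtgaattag
Hoxd4: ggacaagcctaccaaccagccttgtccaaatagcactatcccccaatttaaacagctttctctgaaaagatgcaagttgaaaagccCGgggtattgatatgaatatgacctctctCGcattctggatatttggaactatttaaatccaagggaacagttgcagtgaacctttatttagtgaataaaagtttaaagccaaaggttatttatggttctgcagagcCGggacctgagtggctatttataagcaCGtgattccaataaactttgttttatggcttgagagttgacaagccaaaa

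The Hoxa9 window holds 4 CG dinucleotides and a GC content of 49.7%, against 20 and 68.3% at Hoxd9, 9 and 45.7% at Hoxa2, and 4 and 39.7% at Hoxd4. The Hoxa9 peak lay 214 to 809 bp from this start, inside the gene and outside the printed letters, whereas the Hoxd9 peak lay at its start. The RefSeq table held 22 of the 38 members, with 24 windows, since some have more than 1 start. A window was called where a peak lay within 1 kb of its start. The peak can thus lie outside the letters counted, as at Hoxa9 and Hoxa7. Over the 16 windows called in all 7 libraries the median number of CG dinucleotides was 20 (range 4 to 45). Over the 4 windows called in none it was 11 (4 to 13), and over all 32851 windows of the same length it was 7. The GC content had medians of 58.8%, 44% and 52.7% in the same order. Among the 16 called windows, those of Hoxa9 and Hoxd11, each with 4, and Hoxd8, with 6, lay below the median of all windows.

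The sequence bound by Hox proteins together with homeodomain partners, TGATTNAT on either strand, occurred in 2 of the 24 member windows (8.33%) and in 3.22% of all windows, with 1 copy in the Hoxa2 window printed above. The homeodomain core TAATTA was found in 2 (8.33%, against 5.29%), and TTTAT, the core bound by posterior Hox proteins, in 9 (37.5%, against 40.01%). The TATA sequence TATAAA, which can overlap TTTAT, was in 4 (16.7%, against 13.6%), among them the Hoxd4 window, which also holds 6 copies of TTTAT. These are matches of letters only.

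The clusters also hold microRNA genes, whose mature strands share seeds between clusters. The mature sequences are shown 5′ to 3′ with the seed, bases 2 to 8, in capitals, because they show how close the copies in different clusters are.
mmu-miR-10a-5p (HoxB): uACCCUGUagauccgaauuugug
mmu-miR-10b-5p (HoxD): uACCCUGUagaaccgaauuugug
mmu-miR-196a-5p (HoxB and HoxC): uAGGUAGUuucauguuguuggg
mmu-miR-196b-5p (HoxA): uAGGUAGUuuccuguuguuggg
mmu-miR-615-3p (HoxC): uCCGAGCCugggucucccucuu

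Across the 7 libraries, 14.4 to 20.1 M tags were kept after removal of duplicate positions, and the peak caller MACS2 reported 69302 to 79158 broad peaks per library, which covered 3.32 to 3.94% of the effective genome. Nedd4L-cKO replicate 4 was the deepest library and had the most peaks, and Nedd4L-WT replicate 3 was the only library whose run name gives lane 2. All 10 MuSC marker genes, Pax7 and Myod1 among them, had a promoter peak in all libraries, while the 6 haematopoietic markers had none in any. Of the 4 endothelial markers only Kdr, and of the 4 fibro-adipogenic markers only Dpt, was called in all libraries, while the fibro-adipogenic Dcn was called in 5. Of the 4 neural and germline genes listed as closed controls, Olig2 was called in 6 libraries and Sox1 in 1, and Pou5f1 and Neurod1 in none. Accessibility is given below as the pileup percentile, the rank of a peak's tag pileup among all peaks of the same library on a scale from 0 to 100, because pileup itself rises with depth.

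A peak within 1 kb of the start was called in all 7 libraries for 24 of the 38 members (63.2%), for 6 members in some libraries, and for 8 members in none (21.1%). Of all 21440 promoters, 59.7% were called in all libraries and 34.7% in none, so the Hox share lay near that of all genes. HoxA had 8 of its 10 members called throughout, HoxC 7 of 9, HoxD 6 of 9 and HoxB 3 of 10. The called Hox promoters had a median pileup percentile of 74.1, below the median of 86.6 over the 12807 promoters called in all libraries, and 5 of the 24 were above that median: Hoxa3, Hoxa7, Hoxa9, Hoxa10 and Hoxc6. The median peak length was 1093 bp at Hox promoters and 1315 bp at all. With the stricter peak minimum of 5 on the −log10 q scale, 10 members (26.3%) were called in all libraries against 50.1% of all promoters, and Hoxa7 and Hoxa9 were not among them although their pileup ranked highest.

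**Figure D1:**
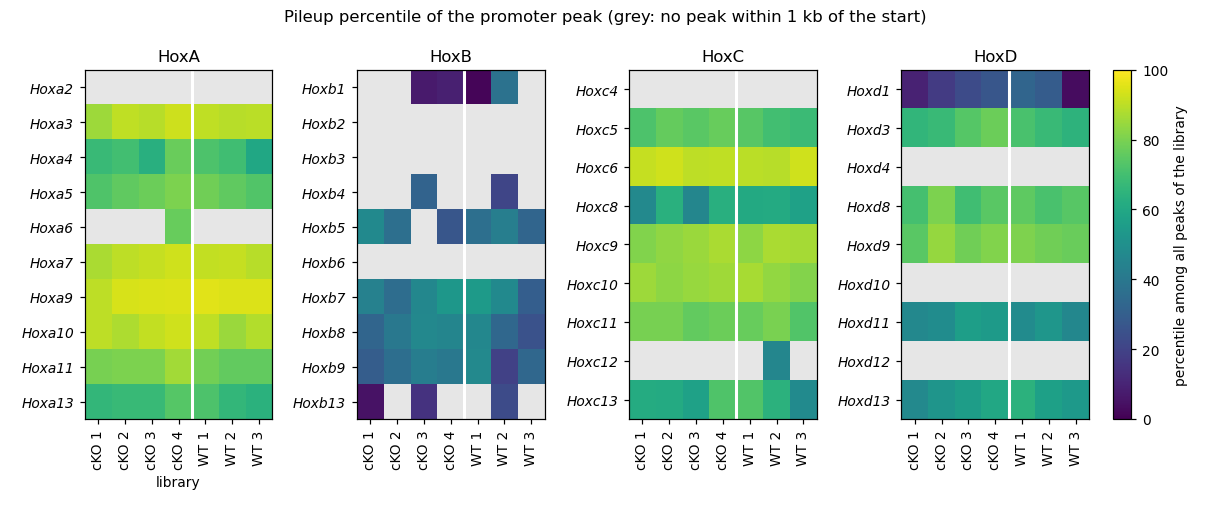
Pileup percentile (colour, 0 to 100) of the promoter peak of each of the 38 Hox members (rows, by cluster and paralog number) in the 4 Nedd4L-cKO and 3 Nedd4L-WT libraries (columns); grey marks a member with no peak within 1 kb of its start. HoxA and HoxC are mostly filled with light colours, the high percentiles, in every column, while 7 of the 10 HoxB rows hold at least 1 grey cell.

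In HoxA, which spans 98.5 kb (chr6:52162417-52260880, minus strand), 4 of the 5 members above the all-promoter median had neighbouring starts, those of Hoxa10, Hoxa9, Hoxa7 and Hoxa3. The outer Hoxa3 start, position 52213067, is that of a long RefSeq transcript and lies between the starts of Hoxa6 (52208672) and Hoxa7 (52218573), so its peak belongs to that place and not to the anterior end of the cluster. Hoxa9 had pileup percentiles of 90.04, 93.9, 94.2 and 94.7 in Nedd4L-cKO replicates 1 to 4 and of 95.7, 94.6 and 94.7 in Nedd4L-WT replicates 1 to 3. Its lowest value was that of Nedd4L-cKO replicate 1, and the genotypes overlapped. Hoxa7, a gene of the trunk vertebrae, was at 87.1, 90.1, 91.4 and 92.7 in Nedd4L-cKO and at 90.7, 91.1 and 89.2 in Nedd4L-WT. Hoxa3, which is needed for the thymus and parathyroid, had a median of 89.5 (85.2 to 92.3), and Hoxa10, a patterning gene of the upper limb segment, had a median of 89.9 (85.0 to 92.9). The spreads of Hoxa3, Hoxa7 and Hoxa10 overlap, so their order is not resolved.

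The remaining HoxA members ranked lower. Hoxa11, which patterns the middle limb segment, had a median of 79.5, Hoxa5, a regulator of lung and trachea, 75.7, Hoxa4 69.5 and Hoxa13, the gene of the hand and foot plate, 67.2. Hoxa6 had a promoter peak in Nedd4L-cKO replicate 4 alone, at 76.7. In all libraries the peak at the Hoxa5 start lay within 1 kb of the other end of Hoxa6. Hoxa2 had none, and the peak nearest to its start lay 3400 to 3468 bp away. Hoxa13 and Hoxa4 were thus the lowest of the 8 HoxA members called throughout, and their ranges overlap.

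HoxB, the longest cluster at 173.9 kb (chr11:96194316-96368254, plus strand), was the least accessible. Only Hoxb7, Hoxb8 and Hoxb9, neighbours that act in the trunk, were called in all libraries, with medians of 46.4, 40.2 and 36.1. Hoxb7 was at 43.9, 35.9, 46.4 and 52.9 in Nedd4L-cKO and at 54.7, 47.5 and 30.1 in Nedd4L-WT. Hoxb8 was at 32.7, 40.2, 46.7 and 45.6 in Nedd4L-cKO and at 46.4, 33.5 and 25.3 in Nedd4L-WT, and Hoxb9 at 29.5, 36.1, 42.2 and 39.9 and at 47.2, 19.5 and 33.3. All 3 varied between libraries by more than any HoxA member called in all 7, and no order among them holds beyond that spread.

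Hoxb5 was missed in Nedd4L-cKO replicate 3 alone and reached 26.6 to 47.5 in the other 6 libraries. Hoxb1, a hindbrain gene, was called in 4 libraries, at 7.21 and 8.76 in Nedd4L-cKO replicates 3 and 4 and at 1.31 and 37.6 in Nedd4L-WT replicates 1 and 2. Hoxb4 was called in Nedd4L-cKO replicate 3 at 31.8 and in Nedd4L-WT replicate 2 at 20.9. Hoxb13, which lies apart at the posterior end of HoxB and acts in the tail and prostate, was called in 3 libraries, at 4.80 in Nedd4L-cKO replicate 1, 14.7 in Nedd4L-cKO replicate 3 and 22.8 in Nedd4L-WT replicate 2. All of these partial calls were below the all-promoter median of 86.6, and none of the 4 genes was called in 1 genotype alone. Hoxb2, Hoxb3 and Hoxb6 had no promoter peak, yet each had a peak inside the gene or within 1 kb of it in all 7 libraries, and the nearest peak lay 1028 to 1204 bp from the Hoxb2 start, 2391 to 4122 bp from that of Hoxb3 and 1582 to 1751 bp from that of Hoxb6.

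HoxC spans 115.7 kb (chr15:102921131-103036856, plus strand) and includes the genes that mark the hindlimb level. Hoxc6, a gene of the thorax, ranked highest, at 91.2, 92.8, 89.9 and 90.4 in Nedd4L-cKO and at 89.7, 89.2 and 92.9 in Nedd4L-WT. Hoxc9, Hoxc10 and Hoxc11, which are used at lumbar and hindlimb levels, had medians of 85.0, 84.5 and 77.4. Hoxc5 had a median of 74.2, Hoxc13, which acts in hair and nail, 61.6 and Hoxc8, a gene of brachial motor neurons, 60.9. Hoxc12 was called in Nedd4L-WT replicate 2 alone, at 46.0. Hoxc4 had no peak at the outer start, the nearest being 2966 to 3194 bp away, but its internal RefSeq start at position 103034395 had a peak in all 7 libraries with a median of 75.8 (72.0 to 78.3).

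HoxD, 96.9 kb long (chr2:74668225-74765142, plus strand), had a median over its called members of 61.8, between the 77.4 of HoxC and the 40.2 of HoxB. Hoxd9, whose promoter is printed above, had percentiles of 74.4, 84.0, 78.4 and 81.0 in Nedd4L-cKO and of 80.6, 78.2 and 77.2 in Nedd4L-WT. Hoxd8 had a median of 74.1 and Hoxd3 of 67.8. Hoxd13, the digit gene, and Hoxd11, which acts with Hoxa11 in the middle limb segment, were lower, with medians of 55.8 and 48.6. Hoxd1, a gene of pain-sensing neurons, was the lowest of all members called throughout, at 9.43, 17.4, 22.9 and 26.8 in Nedd4L-cKO and at 32.6, 29.2 and 3.24 in Nedd4L-WT. Its lowest and its highest value were both in Nedd4L-WT.

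Hoxd4, Hoxd10 and Hoxd12 had no promoter peak at their outer starts. The nearest peak lay 4759 to 5669 bp from the Hoxd4 start, 1700 to 4401 bp from that of Hoxd12 and 1592 to 4458 bp from that of Hoxd10. Hoxd12 was the only member without a peak in or within 1 kb of the gene in any library. At the internal RefSeq start of Hoxd10, position 74691891, all 7 libraries had a peak with a median of 60.3 (51.5 to 69.8). The choice of start also mattered for Hoxb8, where the outer start had a peak in all libraries and the RefSeq start at position 96281905 had none within 2242 bp.

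By position along the cluster, 3 of 7 anterior members (paralogs 1 to 3) were called in all libraries, 9 of 15 central members (4 to 8) and 12 of 16 posterior members (9 to 13). The medians of those called were 67.8, 74.1 and 77.9. Over all promoters, 59.7% were called in all libraries. The outer starts of Hoxa3 and Hoxd3 lie upstream of genes with higher numbers or overlap them, so 2 of the 3 anterior calls were made in the central part of their cluster. Every member of paralog group 9 was called throughout (4 of 4), as were those of groups 8 (3 of 3), 11 (3 of 3) and 7 (2 of 2), whereas neither member of group 2 nor of group 12 was (0 of 2 each). These groups hold few genes, and the counts use the outer starts. With the other RefSeq starts given above, Hoxb8 would not be called, while Hoxc4 and Hoxd10 would be. Within a cluster the paralog number did not order the levels: across genes Spearman's rho of paralog number and median percentile was −0.0952 in HoxA (8 genes), −0.179 in HoxC (7) and 0.143 in HoxD (6), where the genes share libraries and are not independent replicates. Paralogs in different clusters had unlike levels, as in group 9, where Hoxa9 was at 94.6, Hoxc9 at 85.0, Hoxd9 at 78.4 and Hoxb9 at 36.1.

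Peaks covered 17.8% ± 0.983 of HoxA (mean ± SD, n = 7 libraries), 14.8% ± 1.47 of HoxC, 11.4% ± 1.14 of HoxD and 5.603% ± 0.607 of HoxB. This order held in each of the 7 libraries. The median pileup percentile of all peaks in a cluster was 76.4 ± 1.38 in HoxA, 75.6 ± 2.03 in HoxC, 54.1 ± 6.45 in HoxD and 36.8 ± 5.49 in HoxB. HoxA and HoxC exceeded HoxD and HoxB, and HoxD exceeded HoxB, in 7 of 7 libraries, while HoxA was above HoxC in 4 of 7. The 100 kb beyond each end was less covered than the cluster, at 1.61 to 6.41% over the ends with lower coordinates and at 1.04 to 3.89% over the others, apart from the Hoxc4 side of HoxC, which was at 9.14 to 12.3%, still below the 13.001 to 16.9% of HoxC itself.

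**Figure D2:**
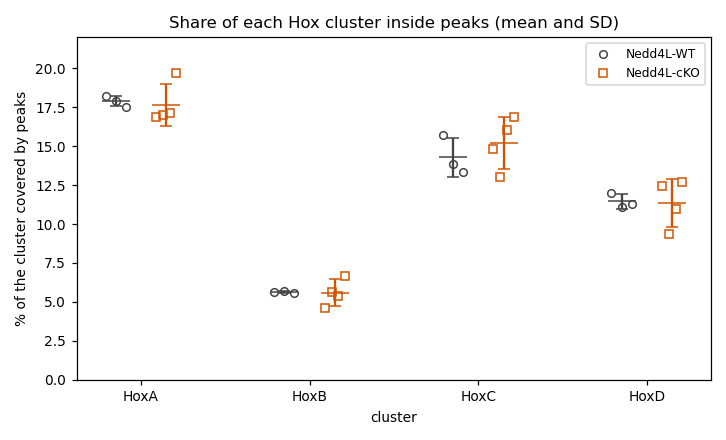
Percent of the length of each Hox cluster covered by broad peaks, with 1 point per library (Nedd4L-cKO and Nedd4L-WT side by side) and the mean with SD of each genotype. HoxA lies at 16.9 to 19.7%, HoxC at 13.001 to 16.9%, HoxD at 9.33 to 12.7% and HoxB at 4.61 to 6.69%, and the genotypes overlap in all 4 clusters.

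Peaks of the libraries were merged where they overlapped, which gave 81 regions in the clusters, 51 of them called in all 7 libraries (63.0%, against 56.0% of the 95163 regions of the genome). Of the 51, 25 lay within 1 kb of a member's outer start and 26 away from any, 3 of which held an internal RefSeq start, of Hoxa10, Hoxc4 and Hoxd10. The regions away from outer starts were about as accessible in HoxC, with a median percentile of 78.7 against 77.4 at starts, and less so in HoxA, with 63.8 against 84.5. Above the all-promoter median of 86.6 lay 11 of the 51 regions (21.6%), close to the 17.7% of all regions called throughout, with 7 of 15 in HoxA, 4 of 16 in HoxC, 0 of 9 in HoxB and 0 of 11 in HoxD. From the Hoxa3 start to the Hoxa10 start, 7 consecutive regions (chr6:52211354-52240872) had medians of 89.5, 90.7, 92.1, 94.6, 87.0, 90.7 and 89.9. Of these, 3 lay away from outer starts, at 92.1, 87.0 and 90.7, the last of them holding the internal Hoxa10 start. The first and last of the 3 were within the range of the regions at outer starts, and the one at 87.0 was the lowest of the 7. In HoxC, regions away from outer starts at chr15:102963353-102964046 and chr15:103002121-103003038 had medians of 90.1 and 90.8, and a region at chr15:102942778-102943789, next to the Hotair gene, had 87.0.

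The longest peak of HoxA covered 2393 bp at Hoxa3 (chr6:52211354-52213746) in Nedd4L-cKO replicate 1, and the peak there was 2057 to 2393 bp in all libraries. In HoxC it was 2991 bp at Hoxc11 in Nedd4L-WT replicate 1, and at that place the longest peak of each library ran from 1612 to 2991 bp, in 1 or 2 pieces. In HoxD it was 1802 bp at Hoxd13 in Nedd4L-cKO replicate 2, against 629 to 1181 bp elsewhere. In HoxB it lay 9429 bp from the Hoxb9 start (chr11:96260321-96261828), was 1508 bp in Nedd4L-cKO replicate 4 and 1383 bp in Nedd4L-WT replicate 2, was at most 443 bp long, in 1 or 2 pieces, in 4 libraries and was missing in Nedd4L-WT replicate 3. Of these 4 places, those at Hoxa3 and Hoxc11 had a peak of at least 1612 bp in every library.

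Non-coding genes within the clusters were read over their whole span. Of 23 long non-coding RNA genes, 14 were overlapped by a peak in all libraries and 6 in none. The share over all long non-coding RNA genes was not computed. Of all protein-coding genes, 71.2% had a peak in or within 1 kb of the gene in all libraries. Some of these peaks are those at member starts and not separate sites, as at Hoxaas3, whose values are those of the Hoxa3 peak. Hoxaas3, which overlaps the start region of Hoxa3, had a median of 89.5, Hoxa11os, on the opposite strand of Hoxa11, 79.5 and Haglr in HoxD 44.1. Hotair, which is transcribed from HoxC and known to act on HoxD, was overlapped in 4 libraries. Of the 6 microRNA genes, 5 had no peak over them in any library. Mir615, which lies inside Hoxc5, was overlapped in 6 libraries by the peak at the Hoxc5 start and had no peak of its own. The peak nearest to Mir196b lay 355 to 432 bp away, and the Mir10a and Mir10b genes, whose mature strands share the ACCCUGU seed shown above, were 626 to 5108 bp and 600 to 7208 bp from the nearest peak.

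The pileup of a peak can be set against its fold enrichment, the ratio of pileup to the local background that MACS2 takes from 10000 bp around the peak. That background was solved from each peak's pileup and fold and is given here as a multiple of the mean tag pileup of the genome, on which the lowest value of every library falls. The tags of the peak are part of the window, and the measure was added after the data had been seen. Its median over all promoters called in all libraries was 4.05, and the 95th percentile was 8.86. The 24 Hox promoters had a median of 3.66, with 10 above the all-promoter median and 2 above the 95th percentile.

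Those 2 were Hoxa9 and Hoxa7. At Hoxa9 the local background was 11.4, 11.5, 10.3 and 12.1 times the genome mean in Nedd4L-cKO and 12.5, 11.7 and 11.2 times in Nedd4L-WT, and its median exceeded that of 98.7% of promoters. At Hoxa7 it was 9.78, 10.1, 9.35 and 10.9 times in Nedd4L-cKO and 11.5, 10.3 and 9.97 times in Nedd4L-WT. Over the 7 regions from Hoxa3 to Hoxa10 the median background was 8.27, 10.1, 10.98, 11.5, 12.3, 10.1 and 5.64 times. All 7 lay above the all-promoter median. Peaks covered 30.8% of the 10 kb around the Hoxa7 peak and 28.0% of that around Hoxa9, against a median of 14.3% at all promoters.

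HoxC had the highest median background of its promoters, 6.24 times, with Hoxc6 at 8.56, Hoxc9 at 8.22 and Hoxc10 at 8.17. HoxA had a median of 5.26, HoxD of 3.09 and HoxB of 1.79. HoxB promoters, from 1.52 times at Hoxb8 to 1.92 at Hoxb7, and Hoxd1 at 1.12 lay closest to the genome mean. The clusters therefore differed in this local background too. The background is not separate from the peaks, since its window holds the tags of the peak and of neighbouring peaks. Over long peaks it is an average.

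**Figure D3:**
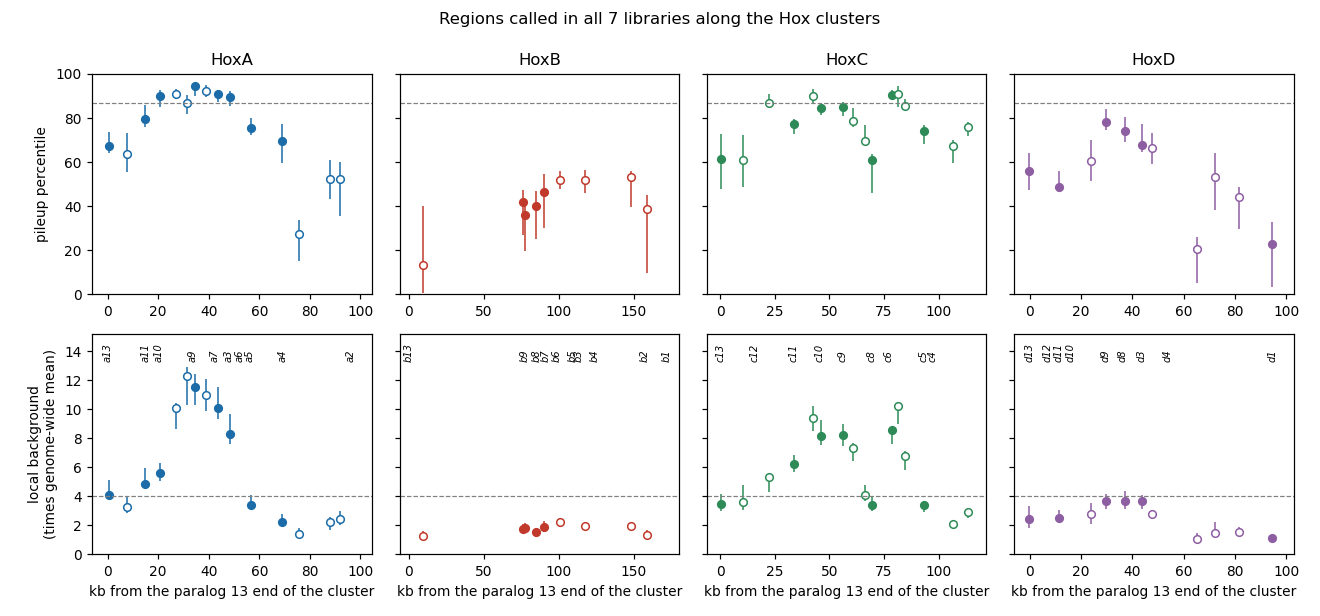
Regions called in all 7 libraries along the 4 Hox clusters, by distance in kb from the end that holds the paralog 13 gene; the upper panels show the pileup percentile and the lower panels the local background as a multiple of the genome mean, with the median as a point (filled within 1 kb of a member's outer start, open elsewhere), the lowest and highest library as a line and the all-promoter medians of 86.6 and 4.05 dashed. The HoxA regions from Hoxa3 to Hoxa10 exceed the dashed line in both panels, with backgrounds up to 12.3, and no HoxB region reaches the pileup line.

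Ranked by fold enrichment in place of pileup, the order of the members turned over. The median fold percentile was 30.0 for the 24 Hox promoters and 79.3 for all promoters. Hoxa9, highest by pileup, was at a fold percentile of 2.48, Hoxa7 at 2.45, Hoxc10 at 2.25 and Hoxc9 at 3.08, while Hoxa4 reached 78.4 and Hoxd9 71.8. Across the 24 members Spearman's rho of pileup and fold percentile was −0.362, against 0.231 across all 12807 promoters, as a description over genes that share libraries. By median fold percentile of all their peaks the clusters read HoxD 40.6, HoxB 30.3, HoxA 15.7 and HoxC 6.95, so HoxA and HoxC changed places with HoxB and HoxD.

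The pair of group 9 promoters printed above shows this in tag numbers. At Hoxa9 the mean pileup was 42.6, 45.4, 48.8 and 56.7 tags in Nedd4L-cKO and 54.7, 51.8 and 47.5 in Nedd4L-WT, with folds of 2.13 to 2.65. At Hoxd9 the pileup was lower, 26.8 to 36.9 tags, but the background was 3.16 to 4.19 times the genome mean and the folds were 4.06 to 4.56. In every library Hoxa9 had the greater pileup and Hoxd9 the greater fold.

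**Figure D4:**
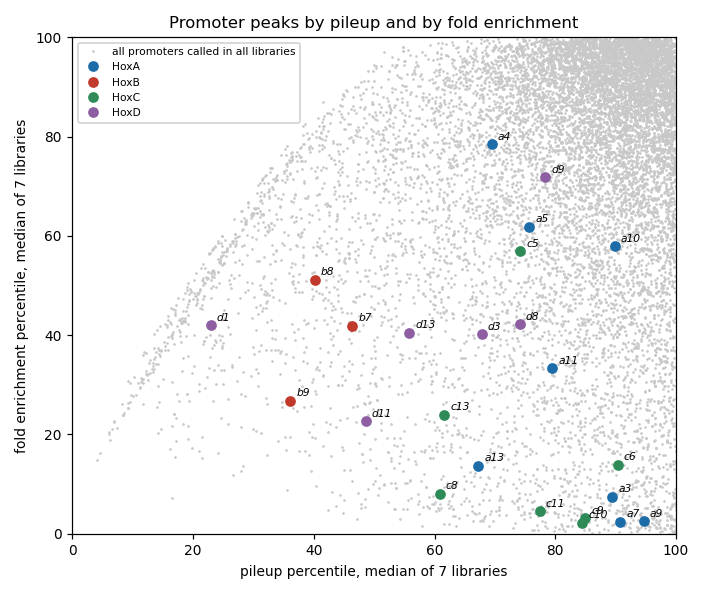
Median pileup percentile (x axis) against median fold percentile (y axis) over 7 libraries for the 24 Hox promoters called in all of them, coloured by cluster, on the 12807 promoters called in all libraries in grey. Hoxa7 and Hoxa9 lie at the lower right, with pileup percentiles of 90.7 and 94.6 and fold percentiles of 2.45 and 2.48, where few grey points are.

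The comparison of genotypes asks whether loss of Nedd4L in Pax7-expressing cells came with a change in accessibility of the Hox clusters. No member was called in all Nedd4L-cKO and no Nedd4L-WT library, or the reverse, which held for 0.00933% and 0.0187% of all promoters. The number of members called was 26.25 ± 0.957 (SD, n = 4) in Nedd4L-cKO and 26.7 ± 2.08 (n = 3) in Nedd4L-WT. The covered length of the 4 clusters was 55.7 ± 5.16 kb against 55.1 ± 2.263 kb, and the number of peaks was 65.75 ± 3.30 against 64 ± 2. The median percentile of the 24 promoters was 74.6 ± 2.62 against 71.9 ± 2.49, and in all 4 measures the genotypes overlapped.

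The levels of the 24 promoters were compared by limma on normal scores of the pileup percentile, fitted over all 12807 promoters with Benjamini-Hochberg adjustment. By limma 0 of 24 members, and 0 (0%) of all promoters, passed an adjusted p of 0.05. At an unadjusted p of 0.05 the counts were 0 of 24 and 306 (2.39%). The member count at the unadjusted p was 2 by fold ranks and 2 without Nedd4L-WT replicate 1. It was 1 without Nedd4L-WT replicate 3, 1 with limma's trend and robust options and 0 under the other alternatives. Differences, Nedd4L-cKO minus Nedd4L-WT, ran from −0.14 to 0.17 normal-score units at the Hox promoters, with standard errors of 0.0796 to 0.289. Of the members, 19 of 24 had a difference above 0, against 48.1% of all promoters, but the count was 10 without Nedd4L-WT replicate 3, the library of lane 2, and 12 without Nedd4L-cKO replicate 4, the deepest. The count was also 10 of 23 where each broad peak had to contain a narrow one. Without any other single library it ran from 16 of 24 to 20 of 24. It was 20 of 24 by fold ranks and 18 of 23 with equal peak numbers. Other windows and overlaps gave 14 of 18, 19 of 26 and 17 of 21. The majority above 0 thus held under most settings, but not without Nedd4L-WT replicate 3 or Nedd4L-cKO replicate 4, nor with narrow-peak support.

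Hoxa11 had the lowest p of the members, with percentiles of 79.5, 80.4, 80.2 and 86.0 in Nedd4L-cKO and 78.6, 75.96 and 76.02 in Nedd4L-WT. It was the only member, 1 of 24, in which every Nedd4L-cKO library was above every Nedd4L-WT library, which held for 1.69% of all promoters, and the reverse held for 0 of 24 and 1.93%. Its difference was 0.17 ± 0.0853 (SE) with an adjusted p of 0.9996 by limma (unadjusted 0.0756). Hoxc5 was next among those higher in Nedd4L-cKO, at 72.1, 76.2, 74.5 and 76.8 against 74.2, 69.8 and 68.0, with overlap. Its difference was 0.13 ± 0.0796, with an unadjusted p of 0.136 by limma.

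In the other direction the lowest p-values were those of Hoxa9 and Hoxd13. The Hoxa9 difference was −0.14 ± 0.0931 with an unadjusted p of 0.155 by limma, and the overlap of its libraries is given above. Hoxd13 was at 47.2, 52.3, 55.8 and 60.1 in Nedd4L-cKO and at 64.1, 56.9 and 53.6 in Nedd4L-WT, a difference of −0.11 ± 0.0990 with an unadjusted p of 0.286 by limma. With fold ranks its sign turned. At Hoxd13 the difference in mean percentile was smaller than the SD within each genotype.

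**Figure D5:**
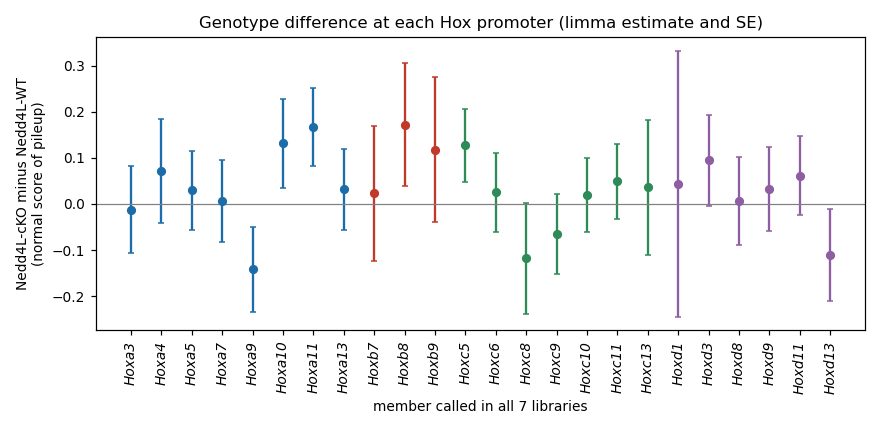
Difference between genotypes (Nedd4L-cKO minus Nedd4L-WT, in normal-score units of the pileup percentile) with the standard error from limma, for the 24 Hox promoters called in all 7 libraries, by cluster. All points lie between −0.14 and 0.17, with 19 of 24 above 0, and none passes the adjusted threshold.

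Over the 53245 regions called in all libraries, limma gave 0 regions (0%) past the adjusted threshold and 1230 (2.31%) at an unadjusted p of 0.05, of which 0 of the 51 Hox regions were part in either case. The lowest unadjusted p of a Hox region was 0.118. With the local background as the measure, fitted by limma on a log2 scale over the 12071 promoters above the genome mean in all libraries, 0 promoters (0%) passed the adjusted threshold, and 360 (2.98%), with Hoxd13 as 1 of the 23 members fitted, had an unadjusted p under 0.05. Only 3 of the 23 were higher in Nedd4L-cKO, close to the 14.9% of all promoters, so the direction was not particular to the Hox genes. Without Nedd4L-WT replicate 1, whose background was the highest of the libraries at 18 of 24 members, 14 of 23 were higher.

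The Hoxd13 background was 1.83, 2.19, 2.42 and 2.59 times the genome mean in Nedd4L-cKO and 3.31, 2.72 and 2.30 times in Nedd4L-WT. The values overlap, with Nedd4L-WT replicate 3 below Nedd4L-cKO replicates 3 and 4. The difference was −0.30 on the log2 scale, with an unadjusted p of 0.00831 and an adjusted p of 0.993 by limma. Leaving out each library moved it from −0.42 without Nedd4L-WT replicate 3, with an unadjusted p of 0.000393 and an adjusted p of 0.187 by limma, to −0.16 without Nedd4L-WT replicate 1, with an unadjusted p of 0.181.

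Genes that act on the Hox genes or on limb identity were read from lists of the same kind. Polycomb genes were called in all libraries at 11 of 12 promoters (median percentile 91.2), all but Cbx7, and Trithorax genes at 5 of 8 (91.4). Among all promoters the share called in all libraries was 59.7%, with a median percentile of 86.6, and the Trithorax share lay near it. Of 6 genes that set limb position or type, Isl1 (80.5) and Shox2 (70.9) were called throughout, Pitx1, the hindlimb selector, in 6 libraries, Hand2 in 5, Tbx4, its hindlimb partner, in 1 and Tbx5, the forelimb gene, in none. The Cdx genes, which switch on Hox genes in the embryo, were called throughout at 0 of 3, and the genes next to the clusters at 3 of 7, Skap2, Mtx2 and Cbx5. Only promoters called in all libraries were fitted by limma, so the Cdx genes and the others not called throughout were not tested. Of the promoters tested in these lists, 0 passed by limma at an adjusted and 0 at an unadjusted p of 0.05.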

How the data were processed

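ATAC-seq libraries of 4 Nedd4L-cKO and 3 Nedd4L-WT mice were grouped by their labels. The submitters' processing notes name Trimmomatic 0.39, BWA 0.7.17, Picard 2.26.3, SAMtools, MACS2 2.2.7.1 and build mm10. Per the file headers, the authors called broad peaks on each library alone and without a control, in single-end mode on 151-bp tags with 1 tag kept per position, a shift of −100 and an extension of 200 bp, at q of 0.1 (broad) and 0.05 (narrow). The deposited lists give pileup, a signal not scaled to depth, fold enrichment, a ratio to the local background, and −log10 p and q values. Deposited files without pileup served only to find broad peaks that hold a narrow peak, or were not used. Mitochondrial peaks, 2 per library, were left out.

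Starts were the outer ends of RefSeq genes (GRCm38.p6), stranded by the RefSeq promoter table (17492 genes) or GENCODE (3948), for 21440 of 21887 protein-coding genes (98.0%). A promoter was called where a peak overlapped the start ± 1 kb by at least 1 bp, and took the highest pileup there, ranked within its library. Genotypes were compared with limma 3.58.1 in R 4.3.3, without covariates, on normal scores of the ranks over features called in all libraries, with Benjamini-Hochberg adjustment, after a test on simulated data. The local background was (pileup + 1)/fold − 1, divided by tags kept × 200/1870000000, and fitted where it exceeded 1.05 in every library. Each library is 1 mouse. Depths of 14.4 to 20.1 M kept tags limit the calling of weak peaks.

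The members, lists and naming rule were chosen with earlier results of these data known. By that rule values per library are given for members not called in all libraries, the 3 highest and 3 lowest medians, the 2 lowest p-values in each direction and the longest peak of each cluster. Alternatives were a stricter q, narrow-peak support, equal peak numbers, other windows and overlaps, the gene span, mean pileup, fold ranks, limma's trend and robust options, blocking by replicate number and leaving out each library. The RefSeq promoter starts and the local background were added after the data had been seen.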

Additional observations from a re-analysis of the deposited data

Results flagged for a closer look

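In 3 of 63 measures of the Hox members and clusters (4.76%), the highest or lowest Nedd4L-cKO library lay further from the other 3 than Dixon's critical value for 4 samples allows, which chance does in about 1 in 20 groups. All 3 were in Nedd4L-cKO replicate 4, the library with the most kept tags and peaks. It had 19.4 kb of HoxA covered by peaks, against 16.6 to 16.9 kb in the other Nedd4L-cKO libraries, a gap of 0.902 of the range. Its Hoxa11 promoter had a pileup percentile of 86.0, against 79.5 to 80.4, a gap of 0.869 of the range. Its Hoxa13 promoter had a pileup percentile of 73.5, against 66.4 to 67.3, again a gap of 0.869. The part of depth in these values was not tested.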

How the results depend on the processing

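Of 108 recomputed values of the comparisons, 104 kept their side of the threshold or their size, and 4 did not. A difference between genotypes counted as kept if it moved by less than the pooled SD within genotypes, even where its sign changed. The covered length, for example, went from 0.638 kb to −1.65 kb with the stricter q and counted as kept. With a −log10 q of at least 5, 10 members were called in all libraries in place of 24. With broad peaks that hold a narrow peak, the difference between genotypes was −2.08 in members called and −1.58 in cluster peaks. With all broad peaks these differences were −0.417 and 1.75, with pooled SDs within genotypes of 1.51 and 2.85. The fit of the local background, with 0 promoters past the threshold, gave 0 to 2 when each library was left out, with 2 without Nedd4L-cKO replicate 4 and neither a Hox member. Leaving out each library gave 24 to 25 members called in all libraries, and differences between genotypes of −1.25 to 0.75 members called, −1.75 to 2.32 kb covered, 0.333 to 3 peaks and 1.88 to 4.20 percentile points. The promoter and region fits had 0 calls under every alternative. Fold ranks reversed the Hoxd13 difference, from −0.11 to 0.20, and gave 575 promoters (4.49%) with an unadjusted p under 0.05 by limma, of which 2 were Hox members. Of 239 values of single clusters and genes, 215 stayed, 23 moved and that 1 reversed. Over promoters, same-numbered libraries did not deviate together (r of −0.251, 0.0444 and −0.192). Such correlations cannot exclude a pairing of the mice, and the labels give none. With a replicate block all fits kept 0 calls, 12 of 24 members were higher in Nedd4L-cKO, and the differences were −0.667 members called, −1.75 kb covered, 0.333 peaks and 1.88 percentile points. Replicate 4 exists only in Nedd4L-cKO, so the block sets it aside. These estimates are therefore those without that library and not a further check. What depth limits among the weak HoxB peaks was not tested.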
